A study of Mus musculus with 22 samples.

Results

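The hypothalamus governs the anterior pituitary through small peptides that nerve terminals in the median eminence release into portal blood. The genes described here encode those peptides and part of the circuitry around them: Trh, Crh, Ghrh, Gnrh1, Sst, Kiss1, Tac2 and the receptor gene Crhr1. They were chosen by matching the gene symbol in the deposited count table, and 7 of the 8 had a line among its 41456 gene IDs. Kiss1 had none under that symbol and was not analysed here. The tissue is hypothalamus of C57BL/6J mice, from which polyadenylated RNA was sequenced, and each library is a separate sample. Mutant mice (PWScrm+/p− in the sample names) lack the Snord116 small nucleolar RNA cluster on the chromosome from their father and control mice (PWScrm+/p+) keep it. The study asked how the loss of Snord116 and sleep loss alter the hypothalamic transcriptome. Of the 17 libraries used, 4 mutant and 4 control ones were taken at ZT6 from mice kept awake for the 6 h before (sleep deprivation, SD). The rest are 2 from mutant mice and 4 from control mice at ZT6 without deprivation, and 3 from control mice at ZT0, the start of the light period. The labels give neither sex nor age, and nothing in them says how the hypothalamus was cut out.

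Thyrotropin-releasing hormone (Trh) and corticotropin-releasing hormone (Crh) come mainly from the paraventricular nucleus and drive the thyroid and adrenal axes. Growth hormone-releasing hormone (Ghrh) comes from the arcuate nucleus, and somatostatin (Sst), much of it from the periventricular nucleus, opposes it at the pituitary. Gonadotropin-releasing hormone (Gnrh1) is made by scattered preoptic neurons, and these are driven by arcuate neurons that make kisspeptin, neurokinin B (from Tac2 in the mouse) and dynorphin. Crhr1 is the main receptor for corticotropin-releasing hormone in the pituitary and is also found in the brain. Many of these genes are also expressed elsewhere in the hypothalamus and forebrain, Sst most widely, so a whole-tissue level is not the level of the neurons that project to the median eminence.

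The hormones are cut from longer precursors, and Trh shows this most plainly. Its 768 coding bases (transcript ENSMUST00000006046, minus strand of chromosome 6) hold 5 in-frame copies of the codons for Gln-His-Pro-Gly, from which the tripeptide hormone is made, each between codons of basic residues where the convertases cut. The copies are shown because 1 Trh transcript carries the hormone that many times over. They lie at chr6:92243088-92243111, chr6:92242992-92243015, chr6:92242857-92242880, chr6:92242803-92242826 and chr6:92242710-92242733 (GRCm38), and the capitals mark the Gln-His-Pro-Gly codons.
Trh copy 1: aaacgcCAGCATCCGGGCaaaagg
Trh copy 2: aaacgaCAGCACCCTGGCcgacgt
Trh copy 3: aagcggCAGCACCCTGGCaggcga
Trh copy 4: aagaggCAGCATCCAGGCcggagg
Trh copy 5: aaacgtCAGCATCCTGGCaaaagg

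The promoters of the pair with the highest levels, Sst and Trh, are shown for the regulatory letters they hold. RefSeq windows of 300 bases around the start sites (GRCm38.p6) lie at chr16:23890795-23891094 for Sst and chr6:92244601-92244900 for Trh, both read from the minus strand. Capitals mark TGACGTCA, the cAMP response element, in the Sst window, 48 to 41 bases before the start, and TGACCT, which is the nuclear receptor half-site AGGTCA read on the other strand, in the Trh window, 57 to 52 bases before it. Searched on both strands, TGACGTCA is present in 1.79% and AGGTCA in 16.3% of 32851 promoter windows of that length, and neither match shows that a factor binds there.
Sst: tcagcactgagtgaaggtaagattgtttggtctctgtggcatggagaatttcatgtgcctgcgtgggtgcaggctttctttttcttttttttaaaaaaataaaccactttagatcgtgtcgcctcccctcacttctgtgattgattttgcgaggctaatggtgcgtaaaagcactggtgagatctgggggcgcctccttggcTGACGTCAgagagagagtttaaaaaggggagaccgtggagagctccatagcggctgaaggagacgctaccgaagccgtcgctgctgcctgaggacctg
Trh: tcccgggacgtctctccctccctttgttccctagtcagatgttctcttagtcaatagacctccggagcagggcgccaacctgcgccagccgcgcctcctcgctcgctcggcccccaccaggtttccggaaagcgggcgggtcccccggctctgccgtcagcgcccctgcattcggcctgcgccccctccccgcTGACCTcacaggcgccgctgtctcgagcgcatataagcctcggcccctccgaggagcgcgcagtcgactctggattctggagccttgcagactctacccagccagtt

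Several libraries stood apart before any comparison was made. The 17 libraries held between 14.61 and 46.97 counts in units of 1e+06. The other 5 libraries, all mutant and at ZT0 or ZT6, were left out. A list of 8 neuron genes had a median summed level of 7.764 CPM (counts per 1e+06 counts of the library, here without TMM) in these 5, against 3368 in the 17. In 4 of the 5 it was 3.451 to 23.37 CPM. The fifth, mutant ZT6 replicate 2, is so shallow that 3 counts make 408.3 CPM, so its zeros say nothing of its tissue. None of the 7 genes described here exceeded 15 counts in any of the 5. Genes of the deleted cluster, counted over 17 gene IDs named Snord116, had 0 counts in all 6 mutant libraries and were found in 8 of 11 control libraries, at up to 1561 counts. The control libraries without counts were ZT0 replicate 3, ZT6 replicate 4 and SD replicate 4. Control SD replicates 1 and 2 had only 1 and 2 counts, fewer than the 3 that a count of 0 allows. The Snord116 counts therefore do not separate any of these control libraries from mutant libraries. Pituitary hormone genes such as Gh and Prl gave a sum of 20750 CPM in replicate 1 and 1121 CPM in replicate 4 of mutant SD, and of 659.7 CPM in the first control ZT6 library. No other library exceeded 19.42 CPM. Hypothalamic marker genes were present in all 17 libraries, with Sim1 at 7.5 to 28.57 CPM and Otp at 32.29 to 83.04 CPM. The sample titles carry an index number whose meaning the labels do not give, and libraries fall into numbers 1 to 4, 5 to 18 and 43 to 46.

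The 7 genes lie on separate chromosomes of GRCm38. Sst is at chr16:23889573-23890958, Trh at chr6:92242061-92244650, Ghrh at chr2:157329497-157347506 and Crh at chr3:19693401-19695396, all on the minus strand. Tac2 is at chr10:127724478-127731768, Gnrh1 at chr14:67745181-67749439 and Crhr1 at chr11:104132855-104175523, on the plus strand. Levels were compared between genes per length, as CPM scaled by TMM (edgeR's library scaling) and divided by the kilobases of annotated exon. Sst had the highest level, 210.3 ± 72.46 CPM per kilobase (SD, n = 17), and Trh followed at 64.0 ± 25.83. Tac2 stood at 19.63 ± 4.78 and Ghrh at 15.09 ± 8.007 CPM per kilobase. The lowest were Gnrh1 at 3.102 ± 2.301, Crhr1 at 3.007 ± 1.367 and Crh at 2.449 ± 1.512 CPM per kilobase. Sst was above Trh, and Trh above Tac2, in all 17 libraries, though with the longest transcript as the length Trh was above Tac2 in 15. Tac2 was above Ghrh in 14 of 17, and Ghrh above Gnrh1 in all 17. The lowest genes could not be ordered: Gnrh1 was above Crhr1 in 8 of 17 libraries and Crhr1 above Crh in 11 of 17, and their spreads overlapped. With the longest transcript as the length, Tac2 stood at 31.75 and Ghrh at 19.53 CPM per kilobase, and the order of the means was the same.

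**Figure D1:**
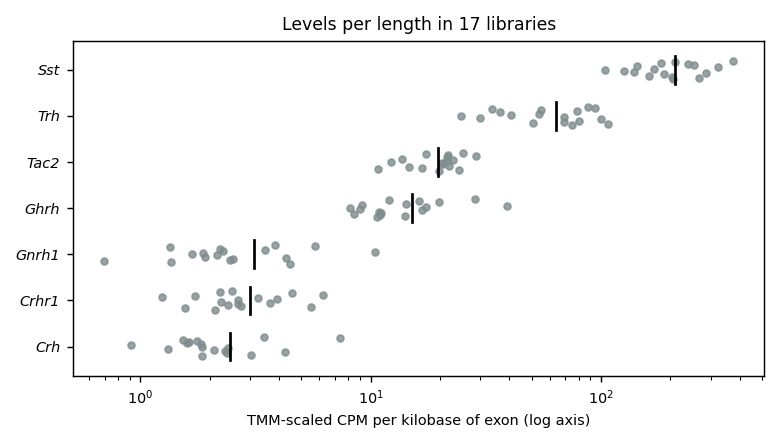
Level of each gene in TMM-scaled CPM per kilobase of exon (log axis), with 1 point per library (17 libraries) and a bar at the mean. Sst (mean 210.3) lies above Trh (64.0) in every library, and the points of Gnrh1, Crhr1 and Crh overlap at means of 3.102, 3.007 and 2.449.

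None of the 7 genes passed the test in any comparison. In edgeR's quasi-likelihood test over 21346 genes with Benjamini-Hochberg adjustment, the lowest adjusted p over 56 gene-by-comparison results was 0.707. DESeq2 and limma-voom also called 0 of the 7. The unadjusted p was under 0.05 in 6 of the 56 results: Ghrh and Tac2 between genotypes after SD, Ghrh between genotypes on average, Crh for SD in controls, Crhr1 for SD on average and Sst for ZT6 against ZT0. Overlap of the libraries could be read in 35 of the results, those that set 1 group against another, and in 4 of these the groups did not overlap. Of all genes, 1.82% to 9.67% did not overlap in these comparisons, and the share of each is given beside its gene. In a whole tissue, fewer cells of a type and less RNA per cell cannot be told apart.

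**Figure D2:**
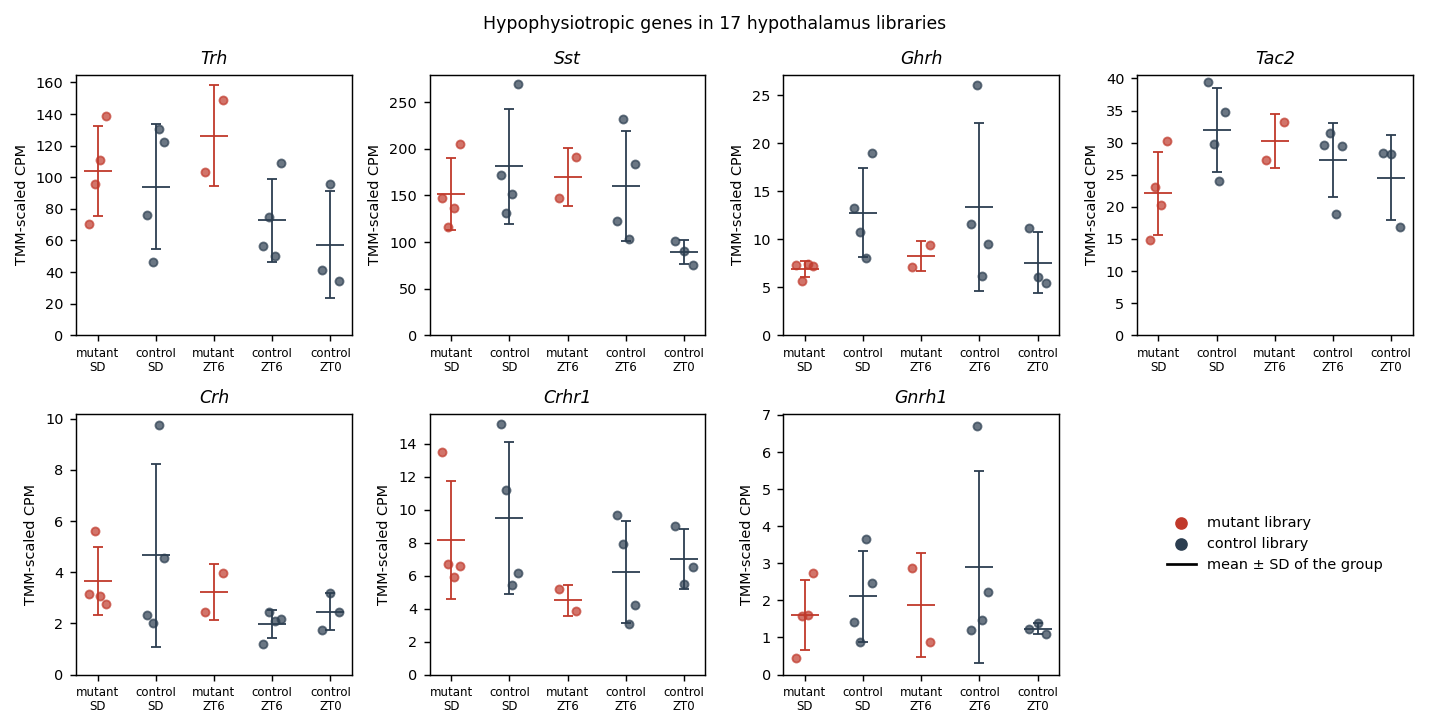
TMM-scaled CPM of each gene in 17 libraries, by group, with 1 point per library and the mean ± SD (4 mutant and 4 control SD libraries, 2 mutant and 4 control ZT6 libraries, 3 control ZT0 libraries; red, mutant; dark, control). Ghrh lies at 5.686 to 7.435 CPM in mutant SD libraries, below the 8.031 to 18.96 CPM of control SD libraries, and the other genes overlap between genotypes after SD.

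Trh was measured at 70.43, 95.52, 110.8 and 139 CPM in mutant SD libraries, against 76.08, 46.66, 130.6 and 122 CPM in control SD libraries. At ZT6 it stood at 103.6 and 148.9 CPM in mutant libraries, against 56.6, 74.66, 50.22 and 109.3 CPM in control libraries, and control ZT0 libraries held 41.33, 96.01 and 34.09 CPM. The mutant ZT6 libraries were above 3 of the 4 control ZT6 libraries, and after SD the ranges of the genotypes overlapped. In the mutant at ZT6 Trh averaged 126.2 ± 32.05 CPM (SD) and in the control 72.69 ± 26.5, a log2 fold change of 0.80 ± 0.44 (SE, 95% interval -0.141 to 1.74; edgeR adjusted p = 0.999). After SD the log2 fold change between genotypes was 0.15 ± 0.37, and the difference of the genotypes' SD responses was -0.65 ± 0.58 (edgeR adjusted p = 1).

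Trh levels moved with the index number of the library. Libraries numbered 43 to 46 held 109.3 to 148.9 CPM, those numbered 1 to 4 held 46.66 to 76.08 CPM, and the 9 others held 34.09 to 130.6 CPM. Within numbers 43 to 46 the single mutant ZT6 library had 148.9 CPM and the single control ZT6 library 109.3 CPM. Within numbers 1 to 18 the single mutant ZT6 library had 103.6 CPM and the 3 control libraries averaged 60.5 CPM. With the 3 sets of index numbers as a term in the fit, the ZT6 genotype difference of Trh was 0.55 ± 0.35 on the log2 scale.

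Genes that act on either side of the hormone did not pass the test either. Trhr, the receptor for thyrotropin-releasing hormone, averaged 9.264 ± 4.42 CPM in mutant and 6.033 ± 5.007 CPM in control ZT6 libraries. Trhde, the ectoenzyme that degrades the hormone, averaged 19.48 ± 3.145 CPM in mutant and 13.23 ± 3.279 CPM in control ZT6 libraries, and over ZT6 and SD its genotype difference was 0.55 ± 0.25 (log2, edgeR adjusted p = 0.942). Dio2, which converts thyroxine to active hormone and takes part in feedback on Trh neurons, averaged 19.39 ± 10.78 CPM in mutant SD and 10.22 ± 0.1631 CPM in mutant ZT6 libraries. In controls Dio2 averaged 18.16 ± 5.771 CPM after SD and 12.8 ± 2.592 CPM at ZT6, and the mean SD difference was 0.71 ± 0.27 (log2, edgeR adjusted p = 1). These 3 genes were singled out after their values were seen.

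Crh was measured at 3.139, 5.619, 3.071 and 2.748 CPM in mutant SD libraries, against 2.339, 2.026, 9.761 and 4.539 CPM in control SD libraries. At ZT6 it stood at 2.443 and 3.99 CPM in mutant libraries, against 1.198, 2.427, 2.11 and 2.159 CPM in control libraries. The control ZT0 libraries held 1.75, 3.186 and 2.447 CPM. Both mutant ZT6 libraries were above all control ZT6 libraries, the nearest by 2.443 against 2.427 CPM. Of all genes, 2.41% were apart in that direction and 6.06% in either. The high control SD mean of Crh came largely from replicate 3. Crh rests on 31 to 237 counts a library, and the exact Poisson 95% interval, which covers counting error only, was 8.56 to 11.1 CPM for control SD replicate 3 and 1.47 to 3.06 CPM for control ZT6 replicate 4.

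The lowest adjusted p of the set belonged to Crh after sleep deprivation in control mice. Crh averaged 4.666 ± 3.576 CPM in control SD and 1.973 ± 0.5355 CPM in control ZT6 libraries (SD, n = 4 each), a 2.37-fold level with a 95% interval of 1.21 to 4.65. The log2 fold change was 1.24 ± 0.46 (SE; edgeR adjusted p = 0.707), and the groups overlapped. Without control SD replicate 3 it was 0.59 ± 0.39. Within index numbers 1 to 18 the means were 4.709 CPM in 3 SD and 1.911 CPM in 3 ZT6 libraries, and within 43 to 46 the single libraries had 4.539 CPM after SD and 2.159 CPM at ZT6. In mutant mice Crh averaged 3.644 ± 1.327 CPM after SD and 3.217 ± 1.094 CPM at ZT6, a log2 fold change of 0.18 ± 0.55, and the difference between the genotypes' responses was -1.06 ± 0.70 (edgeR adjusted p = 1), or -0.40 ± 0.59 without control SD replicate 3. Among controls, 1 of the 7 genes had an unadjusted p under 0.05 and 0 were called, where 6.17% and 0% of all genes tested did so. No gene of the 7 separated control SD from control ZT6 libraries, which 1.82% of genes did.

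Among the genes with patterns most like that of Crh, Dnajc28 had r = 0.8 (Pearson, log2 CPM, 17 libraries, among 16748 genes) and Trmt61b had r = 0.758. Without the 2 libraries at which Crh was farthest from its median, control SD replicate 3 and mutant SD replicate 2, these were 0.572 and 0.644. The libraries differ in depth and index number, and a shared pattern across them is a description only.

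Crhbp, the binding protein that sequesters the hormone, was far more uneven than Crh. It had 0 CPM in mutant SD replicate 1, mutant ZT6 replicate 4 and control SD replicate 4, and up to 12.28 CPM in mutant SD and 13.09 CPM in control ZT6 libraries. Its values separated no group, and its edgeR adjusted p was 0.999 between the genotypes after SD. Ucn3, a ligand of the type 2 CRH receptor, averaged 1.221 ± 1.385 CPM in control SD and 0.243 ± 0.1244 CPM in control ZT6 libraries (log2 fold change 2.27 ± 1.02, edgeR adjusted p = 0.783, named after its values were seen).

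Crhr1 was measured at 13.53, 6.729, 5.94 and 6.562 CPM in mutant SD libraries, against 15.22, 11.2, 5.436 and 6.153 CPM in control SD libraries. At ZT6 it stood at 5.185 and 3.838 CPM in mutant libraries, against 9.684, 7.952, 3.047 and 4.249 CPM in control libraries, with 9.011, 5.489 and 6.516 CPM at ZT0. All 4 mutant SD libraries were above both mutant ZT6 libraries, which 4.6% of all genes also showed (9.67% in either direction), and the control groups overlapped. The SD difference averaged over genotypes was 0.73 ± 0.33 on the log2 scale (edgeR adjusted p = 1). That average is the comparison in which edgeR called 1 gene of 21346, or 0.00468%, and in which 4.87% had an unadjusted p under 0.05, against 1 of these 7 genes. In the mutant the SD difference was 0.86 ± 0.52 and in the control 0.60 ± 0.41, and the difference between them was 0.26 ± 0.64.

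The level of Crhr1 moved with the index number, whose part in the result was not tested beyond the values given here. The 4 libraries numbered 1 to 4 held 9.684 to 15.22 CPM, above every other library, since numbers 5 to 18 held 3.047 to 9.011 CPM and numbers 43 to 46 held 3.838 to 6.562 CPM. Of those 4 libraries 3 were from SD mice: mutant SD replicate 1 and control SD replicates 1 and 2. With the 3 sets as a term, the mean SD difference was 0.40 ± 0.22 (log2) and that of the mutant 0.49 ± 0.33. Within numbers 1 to 18 the mutant averaged 8.734 CPM in 3 SD libraries and 5.185 CPM in 1 ZT6 library, and within 43 to 46 it had 6.562 CPM after SD and 3.838 CPM at ZT6. Mutant SD replicate 1, at 13.53 CPM, is also the library with 20750 CPM of pituitary hormone transcripts, and the corticotroph cells of the pituitary carry this receptor. Control SD replicate 1, the highest for Crhr1 at 15.22 CPM, had 3.092 CPM of hormone transcripts. Mutant SD replicate 4 had 1121 CPM of them and 6.562 CPM of Crhr1, and control ZT6 replicate 1 had 659.7 and 9.684 CPM. The part of pituitary tissue in the Crhr1 level was not tested. Without the 3 libraries that held pituitary transcripts, the mean SD difference was 0.72 ± 0.33 and that of the mutant 0.54 ± 0.52. Tmem115 (r = 0.94), Ppt2 (0.92) and H2-T22 (0.913) had the patterns most like Crhr1.

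**Figure D3:**
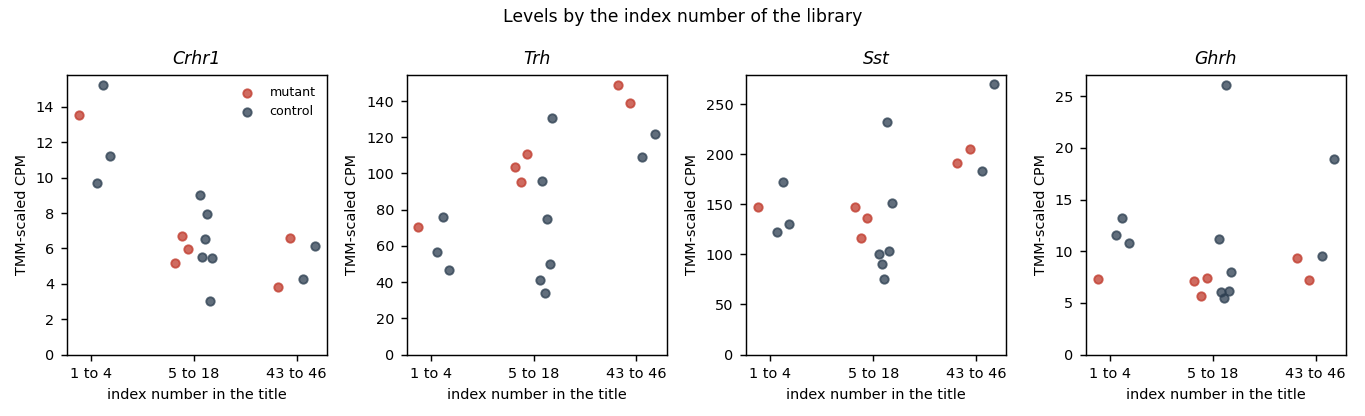
TMM-scaled CPM of Crhr1, Trh, Sst and Ghrh by the index number in the sample title (1 to 4, 4 libraries; 5 to 18, 9 libraries; 43 to 46, 4 libraries), with 1 point per library (red, mutant; dark, control). Crhr1 lies at 9.684 to 15.22 CPM in numbers 1 to 4, above every other library, and Trh and Sst are lowest at 109.3 and 183.5 CPM in numbers 43 to 46, against 34.09 and 75.37 CPM in numbers 5 to 18.

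Ghrh was the gene whose genotype difference was largest for its error. It was measured at 7.359, 5.686, 7.435 and 7.235 CPM in mutant SD libraries, against 13.25, 10.8, 8.031 and 18.96 CPM in control SD libraries. All 4 mutant libraries were below all 4 control libraries, as 2.14% of all genes were in that direction and 3.02% in either. At ZT6 Ghrh stood at 7.151 and 9.387 CPM in mutant libraries, against 11.57, 26.08, 6.153 and 9.543 CPM in control libraries, and the ranges overlapped. Control ZT0 libraries held 11.22, 6.027 and 5.435 CPM.

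After SD Ghrh averaged 6.929 ± 0.8327 CPM in mutant and 12.76 ± 4.653 CPM in control libraries (SD, n = 4 each), 0.54-fold with a 95% interval of 0.308 to 0.957. The log2 fold change was -0.88 ± 0.38 (SE; edgeR adjusted p = 0.999), and over ZT6 and SD it was -0.79 ± 0.31 (edgeR adjusted p = 0.942). After SD 2 of the 7 genes, Ghrh and Tac2, had an unadjusted p under 0.05, against 2.96% of all genes, and 0 were called by adjusted p, against 0%. Over ZT6 and SD 1 of 7 did, against 3.6%, with 0 called, against 0%. The mean over both states was -0.49 ± 0.24 without control ZT6 replicate 2, which had the highest level at 26.08 CPM, and the ZT6 difference alone was -0.13 ± 0.38 without it and -0.69 ± 0.48 with it. Within index numbers 1 to 18 the SD libraries averaged 6.827 CPM in 3 mutants and 10.69 CPM in 3 controls, and within 43 to 46 they were 7.235 CPM in 1 mutant and 18.96 CPM in 1 control.

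Control ZT6 replicate 2 stood apart in other genes too. It had the highest levels of the arcuate peptide Agrp (34.9 CPM) and of Avp (716.4 CPM), Oxt (355.9 CPM) and Gnrh1 (6.712 CPM). Its genes of meninges and fibroblasts, such as Col1a1, summed to 2835 CPM, the highest of the 17 libraries. What these values had to do with its Ghrh level was not tested. Atp5d, a subunit of the mitochondrial ATP synthase, followed Ghrh at r = 0.925 over 17 libraries (0.811 without that library and control SD replicate 4), and it too was highest there, at 266.2 CPM. Vamp5, listed under 2 gene IDs with the same correlation, had r = 0.926.

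The receptor for Ghrh is a gene of pituitary somatotrophs. Ghrhr had 0 CPM in 13 of 17 libraries and 20.39 CPM in mutant SD replicate 1, where pituitary hormone transcripts were highest, and it was named after its values were seen. Gh itself reached 17450 CPM there and Prl 2171 CPM, against medians of 0.4768 and 0.4223 CPM over the 17 libraries. Ghrh in that library was 7.359 CPM, within the range of the other mutant SD libraries.

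Sst was measured at 147.2, 116.6, 136 and 205.6 CPM in mutant SD libraries, against 172.3, 130.8, 151.3 and 269.9 CPM in control SD libraries. At ZT6 it stood at 147.5 and 191.5 CPM in mutant libraries, against 122.5, 232.3, 103.3 and 183.5 CPM in control libraries. The genotypes overlapped in both states, with log2 fold changes of -0.26 ± 0.27 after SD and 0.08 ± 0.33 at ZT6. At ZT6 the 95% interval of the fold level between genotypes was 0.649 to 1.72, and after SD it was 0.56 to 1.25.

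The first hours of the light period gave the smallest p for Sst. All 4 control ZT6 libraries, at 103.3 to 232.3 CPM, were above the control ZT0 libraries, at 100.8, 90.75 and 75.37 CPM, as 1.95% of all genes were in that direction and 4.4% in either. Sst averaged 160.4 ± 58.87 CPM at ZT6 and 88.98 ± 12.81 CPM at ZT0 in controls, a 1.8-fold level with a 95% interval of 1.16 to 2.8 (log2 fold change 0.85 ± 0.30, edgeR adjusted p = 0.96). It was 0.61 ± 0.28 without control ZT6 replicate 2. Some lists of marker genes were higher at ZT6 in value as well, and others were not. All 7 striatum genes had a positive log2 fold change (median 0.23), and they summed to 143.9 to 383.8 CPM at ZT6 and 150.9 to 172.6 CPM at ZT0. All 7 genes of the arcuate list were positive (median 0.55), with sums of 180 to 1342 CPM at ZT6 and 153.2 to 268.9 CPM at ZT0. Pomc alone gave 1144 of the 1342 CPM, in replicate 1, a library with pituitary transcripts. In the pituitary list 10 of 11 genes were positive (median 2.93), with sums of 293.9 to 1218 CPM at ZT6 and 270.5 to 340.4 CPM at ZT0. These sums do not follow pituitary tissue alone. The 1218 CPM was in replicate 4, where the 6 hormone genes summed to 11.77 CPM, and replicate 1 had 1079 CPM, with 659.7 CPM of hormone genes. In the ZT0 libraries the hormone genes summed to 1.382 to 1.977 CPM. The rest of the ZT0 sums came from the list's other genes, Chgb among them. Paraventricular genes (5 of 8 positive, median 0.31) and those of cortex, hippocampus and amygdala (5 of 7, 0.15) leaned the same way. Thalamus and habenula (4 of 8 positive, median -0.01), neuron (3 of 8, -0.05) and preoptic (2 of 6, -0.16) genes did not. Neither did meninges and fibroblast (4 of 9, -0.03) or myelin (3 of 7, -0.08) genes. The median over all genes was 0.09, and the part of any of these cells or tissues in the Sst value was not tested. Without the 3 libraries with pituitary transcripts the log2 fold change of Sst was 0.95 ± 0.30. All 3 ZT0 libraries have index numbers from 5 to 18, and the ZT6 libraries come from all 3 sets. With the sets as a term the log2 fold change was 0.75, and within numbers 1 to 18 the means were 152.7 CPM at ZT6 and 88.98 CPM at ZT0. Of the 7 genes 1 had an unadjusted p under 0.05 between these times and 0 were called, against 3.25% and 0% of all genes.

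Ghrh and Gnrh1 also had higher means at ZT6 than at ZT0 in controls, but with overlap. Ghrh averaged 13.34 ± 8.782 CPM at ZT6 and 7.559 ± 3.18 CPM at ZT0 (log2 fold change 0.82 ± 0.42, edgeR adjusted p = 0.96). Gnrh1 averaged 2.901 ± 2.578 CPM at ZT6 and 1.232 ± 0.1504 CPM at ZT0 (1.23 ± 0.70, adjusted p = 0.96). Without control ZT6 replicate 2 the log2 fold changes were 0.26 ± 0.34 for Ghrh and 0.39 ± 0.64 for Gnrh1. Trh, Tac2, Crh and Crhr1 gave 0.35 ± 0.40, 0.16 ± 0.27, -0.33 ± 0.49 and -0.16 ± 0.44 on the log2 scale.

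**Figure D4:**
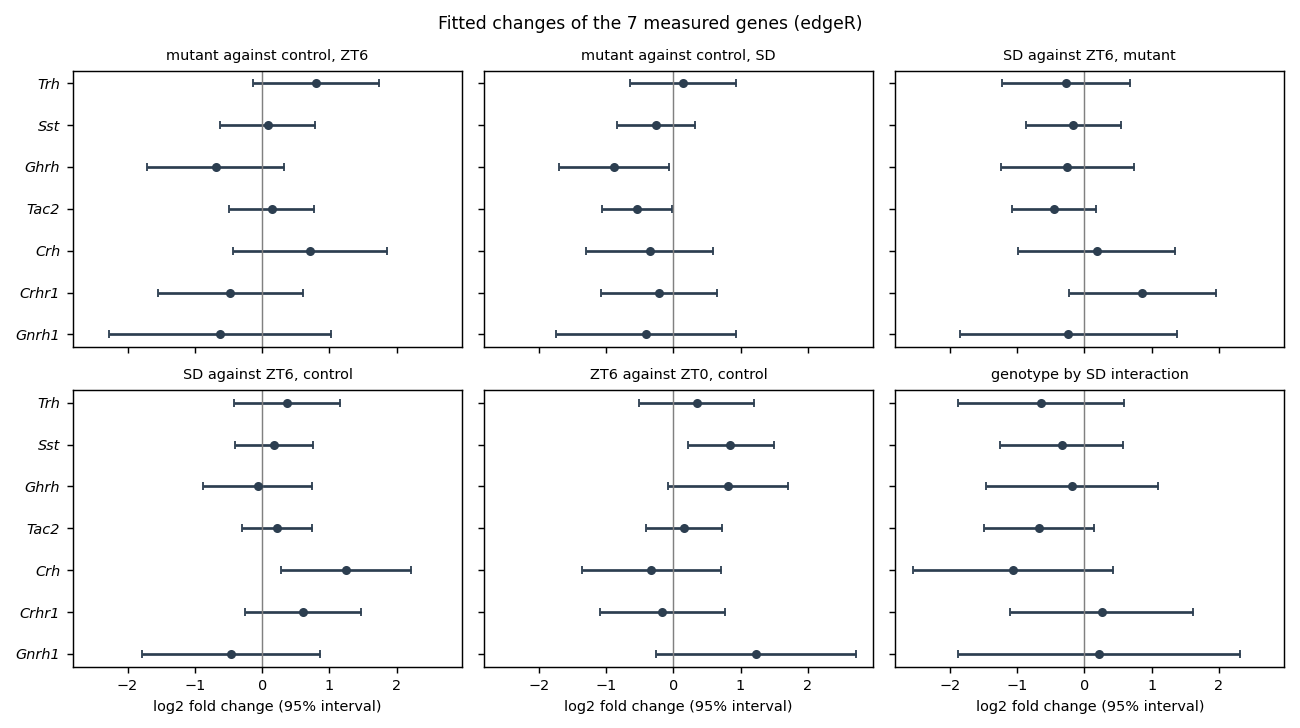
Log2 fold change of each of the 7 genes in 6 comparisons, as the edgeR estimate with its 95% interval (the last panel is the difference between the genotypes' SD responses). The intervals of Ghrh (-1.7 to -0.063) and Tac2 (-1.06 to -0.0118) after SD, Crh in control SD against ZT6 (0.273 to 2.22) and Sst in control ZT6 against ZT0 (0.214 to 1.49) leave out 0, and no adjusted p was under 0.05.

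Gnrh1 was the scarcest of the hormone genes in CPM and had the largest coefficient of variation of the 7 genes. It was measured at 0.4484, 1.581, 1.616 and 2.748 CPM in mutant SD libraries, against 1.425, 0.8684, 3.665 and 2.471 CPM in control SD libraries. At ZT6 it stood at 2.861 and 0.8741 CPM in mutant libraries, against 1.198, 6.712, 1.465 and 2.229 CPM in control libraries, and at 1.232, 1.382 and 1.081 CPM in control ZT0 libraries. Every group pair overlapped. The highest library exceeded the lowest 14.97-fold, and the coefficient of variation over 17 libraries was 74.2%, against a median of 43.4% for genes of similar mean level (within 1.5-fold), of which 83.5% varied less. By that measure Trh and Ghrh stood further out. Trh had a coefficient of variation of 40.4%, against a median of 20.6%, with 92.8% of similar genes below it, and Ghrh had 53.1%, against 27.7%, with 90.1% below. For Sst the share below was 85.6%, for Crh 83.4%, for Crhr1 80.9% and for Tac2 58%. The lowest library rests on 17 counts, with an exact Poisson 95% interval of 0.261 to 0.718 CPM. The genotype difference was -0.40 ± 0.63 after SD and -0.63 ± 0.78 at ZT6 (log2), and without control ZT6 replicate 2 the ZT6 value was 0.24 ± 0.71.

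The receptor for Gnrh1, Gnrhr, marks pituitary gonadotrophs. It was highest at 13.95 CPM in mutant SD replicate 1, next at 0.8121 CPM, and had 0 CPM in 6 libraries. The lowest mutant SD library had 0.06729 CPM, and control SD libraries reached at most 0.08684 CPM. Kiss1r, the receptor through which kisspeptin acts on these neurons, averaged 4.435 ± 0.4012 CPM in mutant and 4.447 ± 1.614 CPM in control SD libraries. The means were alike, but the control SD libraries ran from 2.883 to 6.183 CPM.

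Tac2 was the most even of the 7 genes, with a coefficient of variation of 24.4%. It was measured at 14.85, 23.05, 20.25 and 30.29 CPM in mutant SD libraries, against 39.38, 29.82, 24.01 and 34.7 CPM in control SD libraries. At ZT6 it stood at 27.26 and 33.22 CPM in mutant libraries, against 29.7, 31.45, 18.81 and 29.46 CPM in control libraries, and ZT0 libraries held 28.46, 28.22 and 16.87 CPM. After SD 3 of the 4 mutant libraries were below all control libraries, and the fourth, replicate 4, lay within their range. The means were 22.11 ± 6.428 CPM in mutant and 31.98 ± 6.593 CPM in control SD libraries (SD, n = 4 each), a log2 fold change of -0.53 ± 0.25 (edgeR adjusted p = 0.999). Within index numbers 1 to 18 the means were 19.38 CPM in 3 mutants and 31.07 CPM in 3 controls, and within 43 to 46 the levels were 30.29 CPM in 1 mutant and 34.7 CPM in 1 control. The log2 fold change was -0.36 ± 0.24 without mutant SD replicate 1, the lowest library, which also had the lowest summed level of neuron genes, 2373 CPM, and the pituitary transcripts. At ZT6 the difference was 0.14 ± 0.30 and the difference between the genotypes' SD responses was -0.68 ± 0.38 (edgeR adjusted p = 1).

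The arcuate neurons that make neurokinin B also make dynorphin, from Pdyn. Pdyn averaged 70.22 ± 11.32 CPM in mutant and 78.66 ± 22.01 CPM in control SD libraries, a log2 fold change of -0.16 ± 0.26. Tacr3, the neurokinin B receptor, averaged 16.42 ± 6.037 CPM in mutant and 15.41 ± 1.538 CPM in control SD libraries. The pattern most like Tac2 was that of the glycolytic enzyme gene Gapdh (r = 0.891), followed by Idh3b (0.873) and Rab26 (0.869).

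Between the genotypes at ZT6, 0 of the 7 genes were called, against 0% of all genes, and 0 had an unadjusted p under 0.05, against 2.65%. Crh alone had libraries that did not overlap, higher in the mutant, as in 2.41% of all genes (6.06% in either direction). The values for mutant ZT6 rest on 2 libraries. In the mutant 0 of 7 genes had an unadjusted p under 0.05 between SD and ZT6, against 2.16%, and 0 were called, against 0%. For the difference between the genotypes' SD responses both counts were 0 as well, against 2.48% and 0% of all genes.

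Across the 17 libraries several of the genes varied together. Ghrh and Sst had r = 0.676 (log2 CPM), and 0.767 after the group means were taken out. Trh and Sst had 0.651 and 0.562 on those 2 measures, and Trh and Crh 0.606 and 0.585. Crh and its receptor gene Crhr1 ran the other way, at -0.259 and -0.635. Sst, like Trh, was high in the libraries numbered 43 to 46, at 183.5 to 269.9 CPM. Numbers 1 to 4 held 122.5 to 172.3 CPM of Sst and numbers 5 to 18 held 75.37 to 232.3 CPM, so there was overlap. Striatum genes such as Drd2, Adora2a and Penk (7 in the list) summed to 358.4 to 481.1 CPM in the 4 libraries numbered 43 to 46. In the 13 others they summed to 143.9 to 237.1 CPM, with 223.6 CPM in control ZT6 replicate 2, which had the 232.3 CPM of Sst. What tissue of a neighbouring region had to do with the Sst, Trh and Dlx1 levels was not tested. The points share library depth, dissection and index number, so these values describe the libraries and were not tested.

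Dlx1, a homeobox gene of GABA neurons, had the pattern most like Trh, at r = 0.909 (0.891 without the 2 libraries farthest in Trh). Its antisense partner Dlx1as had 0.825. Reads from sequence that these overlapping genes share may not be told apart here, since strand-specific counting is not stated. Scg3, a granin of secretory granules, had 0.863. Trh and Dlx1 were both highest in mutant ZT6 replicate 4, at 148.9 and 81.03 CPM. The gene IDs most like Sst were Gm27529, Gm27288 and Gm27907, all at r = 0.934. They shared a mean of 31 CPM as well, so they may not be separate patterns. Those most like Gnrh1 were Atp5md (0.883), BC031181 (0.869) and Tstd3 (0.849).

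**Figure D5:**
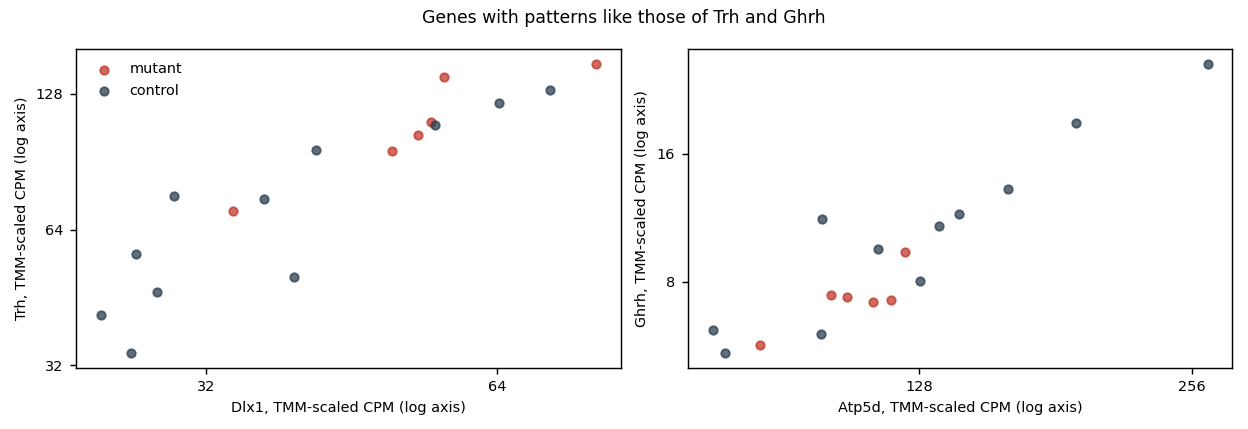
TMM-scaled CPM of Trh against Dlx1 and Ghrh against Atp5d in 17 libraries (all axes log, 1 point per library; red, mutant; dark, control). Pearson r on log2 CPM was 0.909 and 0.925, and control ZT6 replicate 2 is the point at the upper end of the Ghrh panel (26.08 CPM).

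Around these genes, 122 genes in 16 lists were tested and none was called in any of the 8 comparisons (lowest edgeR adjusted p 0.699). The lists hold receptors, CRH family genes, processing enzymes, thyroid and steroid feedback genes, co-expressed and nuclear marker genes, and markers of other cell types and regions. Of 12 receptor genes 6 had positive and 6 negative log2 fold changes between genotypes after SD, with a median of 0.04 against -0.02 for all genes. The 8 processing genes had a median of 0.00, with Pcsk1, a prohormone convertase, at 109.9 ± 16.23 CPM in mutant and 82.92 ± 20.08 CPM in control SD libraries. The 11 steroid and feedback receptor genes had a positive log2 fold change throughout after SD (median 0.24), while at ZT6 6 were positive and 5 negative (median 0.05). Esr1, the estrogen receptor gene, averaged 26.46 ± 14.07 CPM in mutant and 15 ± 3.88 CPM in control SD libraries (edgeR adjusted p = 0.999). The 7 genes described here, Crhr1 included, had a median of -0.35 after SD, with 1 positive and 6 negative. Pcsk1 and Esr1 were named after their values were seen.

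Genes of the nuclei that house these neurons gave no call either. Sim1 and Otp, transcription factors of the paraventricular nucleus, averaged 16.91 ± 5.048 and 45.23 ± 9.412 CPM in mutant SD libraries, and 11.84 ± 3.65 and 45.83 ± 8.645 CPM in control SD libraries. Otp at ZT6 averaged 65.05 ± 25.45 CPM in mutant and 43.33 ± 9.276 CPM in control libraries (log2 fold change 0.59 ± 0.26, edgeR adjusted p = 0.999). The arcuate list holds Agrp, Npy, Pomc, Cartpt, Tbx3, Otp and Nr5a1. Otp is in the paraventricular list too and Pomc is also a pituitary gene, so it is not specific to the arcuate nucleus. Its genes had mostly negative log2 fold changes in the mutant, as Ghrh and Tac2 did after SD. Of the 7 genes in this list 6 were negative after SD (median -0.38, against -0.02 for all genes) and 6 at ZT6 (median -0.43, against -0.06). Their summed level was 145.9 to 4279 CPM in mutant and 199.7 to 379.5 CPM in control SD libraries, and 220.7 to 249.6 CPM in mutant and 180 to 1342 CPM in control ZT6 libraries. A separate list holds 6 genes co-expressed in neurons that make neurokinin B or Ghrh. Between genotypes after SD, 3 of these were positive and 3 negative (median log2 fold change 0.04). At ZT6 all 6 were negative (median -0.21). The part of the cells of either list in the Ghrh and Tac2 values was not tested. Agrp, which marks arcuate feeding neurons next to those that make Ghrh, averaged 11.78 ± 5.044 CPM in mutant and 13.89 ± 6.744 CPM in control SD libraries. Pomc, expressed in arcuate neurons and the pituitary, reached 4096 CPM in mutant SD replicate 1 and 1144 CPM in control ZT6 replicate 1. Its median over the 17 libraries was 42.07 CPM, and these values made up most of the sums of 4279 and 1342 CPM.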

How the data were processed

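Per the labels' protocols, hypothalamic RNA was extracted with Trizol and polyA-selected (TruSeq) before NovaSeq sequencing. Trimmomatic 0.38 trimmed the reads after a FastQC check, and kallisto 0.44.0 on an Ensembl 79 index gave transcript abundances that tximport summed to genes. The authors deposited estimated counts per gene, already whole numbers and not scaled to depth. The genome build is not given in the sources used here. Per the labels, the authors' own test was DESeq2, with calls limited to adjusted p-values under 0.05 and changes above 2-fold.

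The table has 41461 lines, of which 5 repeat a gene ID and were dropped. Of 22 libraries 17 were used. The 5 left out were 4 with few neuron transcripts and mutant ZT6 replicate 2, which held only 7348 counts in all. All 7 genes measured passed the low-count filter (filterByExpr over the groups with its minimum count of 10 and minimum total of 15) and overlap no other annotated gene. One fit of 5 groups over 21346 genes was made in R 4.3.3 with edgeR 4.0.16 (TMM, two-sided quasi-likelihood F test, Benjamini-Hochberg). Each SE was derived by dividing the size of the log2 fold change by the root of its F statistic. The 8 comparisons are the genotypes within ZT6, within SD and on average, SD against ZT6 within each genotype and on average, ZT6 against ZT0 in controls, and the interaction. Lengths are exon unions of GENCODE M21 on GRCm38. CPM are counts scaled to 1e+06 of TMM-adjusted library size. Likeness is Pearson's r over genes of at least 1 CPM on average (prior count 2). The text names the 8 genes, the 3 most alike to each, list genes that pass the test and a set list (Gnrhr, Crhbp, Pdyn, Sim1, Otp, Agrp, Pomc, Gh, Prl); other names were chosen after their values were seen. One gene that this rule names is not reported here. Alternatives used DESeq2 1.42.0 and limma 3.58.1. Replicates are numbered in accession order, and where nothing says that samples came from separate cages or litters, p-values measure only the spread between these samples. A count of 0 allows 3 counts, 0.06388 to 0.2053 CPM in the 17 libraries, for counting error only. The genes, lists and alternatives were chosen with earlier results of these data known. The scripts were tested on simulated data.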

Additional observations from a re-analysis of the deposited data

Results flagged for a closer look

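Dixon's ratio, the gap of a library to the nearest other divided by the range of the 4, was taken for each gene and group. Among the 21 sets of 4 libraries that hold 1 gene in 1 group, 4 exceeded its 95% critical value, where chance flags about 1 in 20. In mutant SD libraries Crh stood at 5.619 CPM in replicate 2, with the 3 others at 2.748 to 3.139 CPM. The same library was low for Ghrh, at 5.686 CPM, with the others at 7.235 to 7.435 CPM. Crhr1 stood at 13.53 CPM in mutant SD replicate 1, with the others at 5.94 to 6.729 CPM. That library also held 20750 CPM of pituitary hormone transcripts and is 1 of the 4 with index numbers 1 to 4. What either had to do with its Crhr1 level was not tested. In control ZT6 libraries Tac2 stood at 18.81 CPM in replicate 3, with the others at 29.46 to 31.45 CPM.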

How the results depend on the processing

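No paired analysis was possible because the labels carry no replicate numbers and each library is a separate sample. None of the 7 genes was called under any of 29 settings. The 11 alternatives were RLE size factors, DESeq2, limma-voom, no low-count filter, all 22 libraries, a term for index numbers 43 to 46 or for the 3 sets, omitting the 4 libraries numbered 43 to 46, omitting the 3 with pituitary transcripts, only the groups of the comparison, and the 2-fold limit, and each of the 17 libraries was also left out in turn. The number of all genes called did move. DESeq2 called 15 genes between genotypes at ZT6, 1 after SD and 5 on average, 18 for SD in controls, 17 in mutants and 37 on average, 23 for ZT6 against ZT0 and 8 for the interaction. For SD on average, edgeR called 1 gene, against 0 with the 2-fold limit, RLE, 22 libraries, without numbers 43 to 46 or with only the groups compared, 2 with no filter and 4 with the 3 sets. The 3 sets gave 3 genes between genotypes after SD, all 22 libraries gave 173 for SD in mutants, and for SD in controls no filter gave 1 and leaving out numbers 43 to 46 gave 1. Without the libraries with pituitary transcripts the counts were 1 at ZT6 between genotypes, 2 for SD in controls and 1 for the interaction. Leaving out 1 library gave 0 to 2 genes between genotypes at ZT6, 0 to 2 on average, 0 to 1 for SD in controls, 0 to 3 in mutants and 0 to 3 on average, 0 to 1 for ZT6 against ZT0 and 0 to 2 for the interaction. The cause was not tested. Depth leaves the lowest Gnrh1 library at 17 counts and the lowest Crh library at 31.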
